A study of Mus musculus with 8 samples.

Results

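The SOCS family and its Stat5 inducers were examined in layers II-IV of the mouse neocortex at postnatal day 5. The set comprised 10 genes of 19938 tested: the 8 suppressors of cytokine signalling Socs1 to Socs7 and Cish, and the transcription factors Stat5a and Stat5b. The genes were chosen by name. Each was read through probe sets naming that gene alone, which gave 14 probe sets, and the one with the highest mean over all 8 arrays was kept. Both probe sets of Socs2 are shown. Socs2 was already known to be called in this comparison when the set was drawn up, so its difference is given as a description and not as a test.

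Total RNA of the laser-microdissected layers was read on 1 Affymetrix Mouse Gene 1.0 ST array per pup. In 4 Bcl6 mutant pups (Bcl6 flox/flox;Nex Cre/+) floxed Bcl6, a zinc-finger transcriptional repressor, met Cre made from the Nex locus. In 4 Bcl6 control pups (Bcl6 flox/flox;Nex +/+) the same floxed alleles were present without Cre. Nex is another name of Neurod6, which is active in postmitotic excitatory neurons of the cortex, so glia, vessels and interneurons of the mutants are outside the main reach of this Cre. The series title places the comparison in a study of how projection neurons of the cortex die during development. The tissue is a mixture of cell types, in which fewer cells of a type and less RNA per cell cannot be told apart.

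SOCS proteins form a negative feedback loop on cytokine and growth factor receptors. Receptor-bound JAK kinases phosphorylate STAT factors, which enter the nucleus and switch on SOCS genes among others. The SOCS proteins then bind the receptor or kinase through an SH2 domain and recruit a ubiquitin ligase through the C-terminal SOCS box. Socs2 and Cish are classical targets of STAT5 and restrain growth hormone signalling, and Socs2 is also known to promote neuronal differentiation in the mouse. BCL6 and STAT5 can recognise overlapping DNA motifs, with opposite effects on some shared targets in lymphoid cells.

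The palindrome TTCNNNGAA, which STAT5 dimers recognise, was searched on both strands of 300-base RefSeq promoter windows (GRCm38.p6, 250 bases before to 50 after a gene's start). Windows were at hand for 6 of the 10 genes, 8 windows in all, for Cish, Socs1, Socs3, Socs4, Stat5a and Stat5b. The motif was found in 2 of the 8 windows, those of Cish and Socs3, against 8.30% of all 32851 windows. Cish held 2 copies, and 0.457% of all windows held 2 or more. The same palindrome with 1 more base in the middle, a form that STAT6 prefers, was found in none of the 8 windows and in 6.95% of all. The 2 stretches are shown because, of the 6 genes searched, Cish and Socs3 held such a sequence; Socs2, Socs5, Socs6 and Socs7 were not searched. They are written 5′ to 3′ on the strand of the gene, with the motif in capitals:
Cish: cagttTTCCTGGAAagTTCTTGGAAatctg
Socs3: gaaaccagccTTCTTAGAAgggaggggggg

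The Cish stretch is chr9:107296654-107296683 (plus strand), where the motifs begin at bases 1 and 12 from the start. The Socs3 stretch is chr11:117969501-117969530 (minus strand), and its motif begins at base -154 from the start. These are matches of letters and do not show that a factor binds there.

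The labels and the make-up of the tissue were checked before the family. The targeted gene, Bcl6, showed no loss of signal where the label says mutant. Its log2 level was 6.61, 6.76, 6.96 and 6.78 in mutant replicates 1 to 4, against 6.55, 6.58, 6.25 and 6.23 in control replicates 1 to 4 (0.37 ± 0.10, SE; limma adjusted p = 0.655). The sources used here do not say which probes fall in the deleted exons. The value is therefore no check of the deletion, and every direction rests on the labels. Neurod6, which carries Cre on 1 allele in mutants, averaged 8.83 ± 0.17 in mutants and 9.22 ± 0.13 in controls (SD, n = 4 each; limma adjusted p = 0.535). The genotypes did not overlap for either gene, with mutants above for Bcl6 and below for Neurod6. Over all genes 2.75% did not overlap, in either direction. What these values say of the labels was not tested. The excitatory neuron markers Cux1, Cux2, Rorb and Slc17a7 had mutant means of 9.46, 8.77, 10.3 and 7.78 and control means of 9.41, 8.79, 10.2 and 7.93. Rorb was lowest in replicate 4 of each genotype, at 9.81 in the mutant and 9.35 in the control. The deep-layer marker Tbr1 averaged 9.07 in mutants, so these levels show excitatory neuron transcripts but not which layers were taken. Of 62 tested markers of 9 cell classes 0 passed the threshold in limma. An unadjusted p under 0.05 was found for 8 of them, or 12.9%, against 4.91% of all genes, and the part of these markers in the results on the family was not tested. In 7 of the 9 marker lists the summed levels of the genotypes overlapped.

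Socs2 was higher in mutant than in control cortex, and it was the 1 member of the 10 past the adjusted threshold of 0.05, where 0.0652% of all genes passed. The kept probe set read 8.98, 9.0, 9.03 and 9.03 in mutant replicates 1 to 4, against 7.46, 7.95, 8.07 and 7.72 in control replicates 1 to 4. The lowest mutant array lay 0.90 above the highest control array. The groups averaged 9.01 ± 0.03 in mutants and 7.80 ± 0.27 in controls (SD, n = 4 each), a difference of 1.21 ± 0.11 (SE; 95% interval 0.97 to 1.45) on the log2 scale, or 2.31-fold (1.96 to 2.73). Groups that do not overlap with mutants above were found in 0.963% of all genes.

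The other Socs2 probe set gave the same order of arrays among controls. It read 6.37, 6.41, 6.41 and 6.52 in mutant replicates 1 to 4, against 5.21, 5.58, 5.77 and 5.49 in control replicates 1 to 4. Here too every mutant value lay above every control value, with a difference of 0.92 ± 0.10 (SE), or 1.89-fold. In both probe sets control replicate 1 was lowest and control replicate 3 highest. The kept probe set exceeded the other by 2.51 to 2.62 in mutants and by 2.24 to 2.37 in controls, so the size of the difference depended on the probe set while its sign did not. The 2 probe sets share 4 curated RefSeq transcripts of Socs2 and differ in other accessions. Which part of the transcript each one reads, and whether either also reads a near-identical copy elsewhere, was not known here. The identifier of the other probe set lies between those of Cradd and Mrpl42, the nearest tested genes on either side of Socs2. That of the kept probe set does not, and where its probes lie was not tested.

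**Figure D1:**
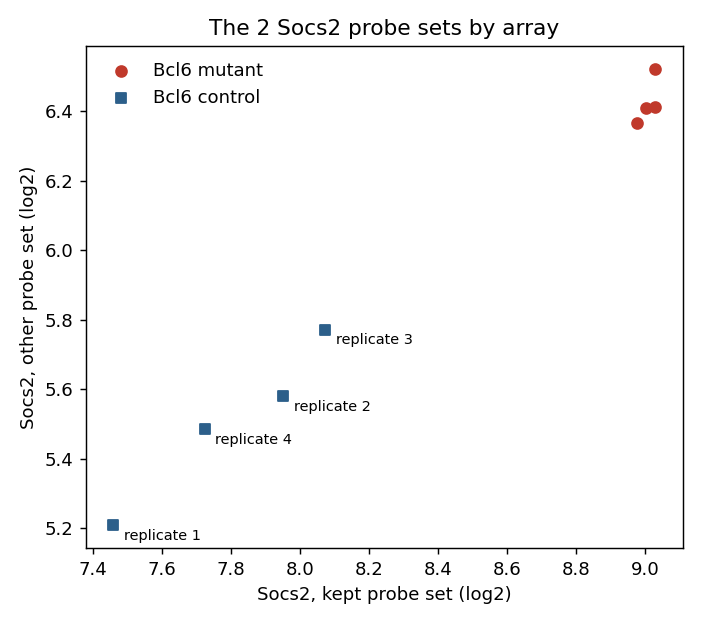
Deposited log2 value of the kept Socs2 probe set (x axis) against that of the other Socs2 probe set (y axis), 1 point per array, red circles for 4 mutants and blue squares for 4 controls, with control replicates numbered. The mutants sit together at the upper right (8.98 to 9.03 on the x axis), and the controls spread from replicate 1 at the lower left to replicate 3, in the same order on both axes.

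In both probe sets of Socs2 the mutant arrays lay closer together than the control arrays. In the kept probe set the SD was 0.025 in mutants and 0.27 in controls, a ratio of controls over mutants of 10.7, and 0.15% of all genes had a larger ratio. In the other probe set the SD was 0.066 in mutants and 0.234 in controls, a ratio of 3.53, and 3.61% of all genes had a larger one, so the size of the ratio depended on the probe set. The median SD over all genes was 0.104 in mutants and 0.105 in controls. Islr2, a leucine-rich membrane protein of axon guidance that was called together with Socs2, had a still larger ratio of 23.1, with SDs of 0.012 in mutants and 0.27 in controls. Its control values were 7.13, 7.11, 6.55 and 6.96 in replicates 1 to 4, so control replicate 3, the highest for Socs2, was the lowest for Islr2. Kif13a and Foxo1, which were called as well, had ratios of 0.82 and 1.37, so closer mutants were not shared by all called genes. Among the other family members the ratio lay between 0.68 for Socs5 and 2.78 for Socs6. With 4 arrays in a group these SDs are themselves imprecise, and their ratio was not tested.

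**Figure D2:**
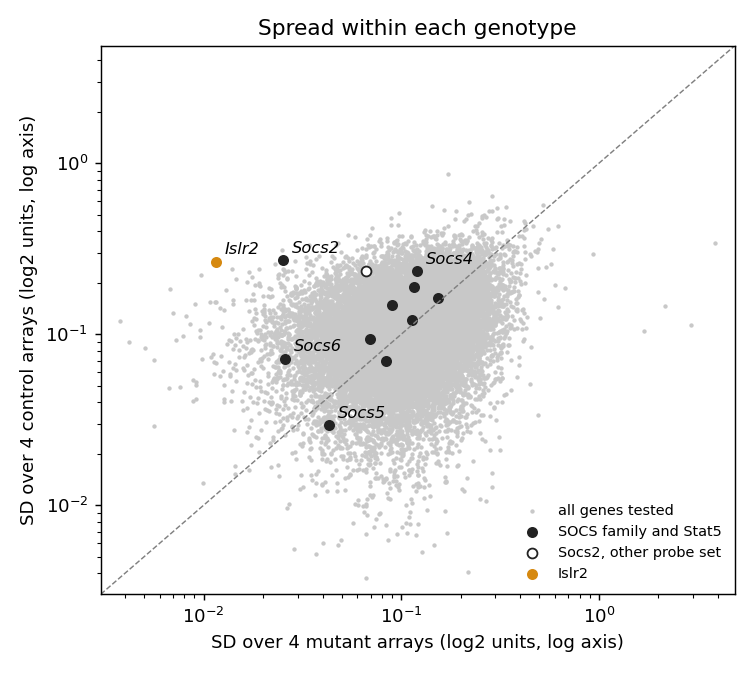
SD over the 4 mutant arrays (x axis) against SD over the 4 control arrays (y axis), both in log2 units on log axes, for all genes tested (grey), the 10 SOCS and Stat5 genes (black, by their kept probe sets), the other Socs2 probe set (open circle) and Islr2 (orange), with the dashed line at equal SD. The kept probe set of Socs2 lies far above the line at 0.025 in mutants and 0.27 in controls, the other one lies nearer to it at 0.066 and 0.234, and the other 9 members lie within the cloud of all genes. The 1 gene with an SD of 0 in a group is not drawn.

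Sex-linked expression differed between the arrays. Xist, the RNA of the inactive X chromosome, was high in 2 mutants, at 9.78 in replicate 1 and 9.76 in replicate 4. The other mutants and all controls lay between 2.64 and 3.41. Without those 2 arrays Socs2 differed by 1.22 ± 0.15 (SE), as large as over all arrays. That fit held 2 mutants and 4 controls, and its adjusted p in limma was 0.0539, against 0.00096 with all 8 arrays. With the mean level of Eif2s3y, Kdm5d and Uty, which are Y-linked, as a covariate the difference was 1.22 ± 0.14 (adjusted p = 0.025). Within the mutants Socs2 read 8.98 and 9.03 in the arrays of high Xist and 9.0 and 9.03 in the others.

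The marker sums of the remaining 2 cell classes did not overlap between genotypes. The summed log2 level of the 8 deep-layer neuron markers was 50.5 to 51.1 in mutants and 49.5 to 49.6 in controls, with 6 differences positive and 2 negative. The largest of them was that of Ldb2, a LIM-domain binding cofactor (0.80 ± 0.15, SE; limma adjusted p = 0.197). Without Ldb2 the sums were 41.8 to 42.6 in mutants and 41.5 to 42.2 in controls, so the groups overlapped. Of those 7 markers 2 still had an unadjusted limma p under 0.05, in opposite directions. Tbr1 was higher in every mutant than in any control (0.17 ± 0.07, SE), and Crym was lower on average (-0.22 ± 0.10). Of the 8 listed red blood cell genes only Alas2 and Slc4a1 were tested, and their sum was 9.29 to 9.74 in mutants and 9.77 to 9.99 in controls. The part of either list in the Socs2 difference was not tested.

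The other SOCS genes of the cytokine-inducible kind showed no call. Cish, the closest relative of Socs2 in sequence and function, read 6.61, 6.70, 6.53 and 6.73 in mutant replicates 1 to 4, against 6.35, 6.65, 6.38 and 6.58 in control replicates 1 to 4. Mutant values were on average higher but the groups overlapped, since control replicate 2 lay above 2 mutants. The difference was 0.15 ± 0.08 (SE; 95% interval -0.03 to 0.33), and its upper bound, 1.26-fold, lies below the lower bound for Socs2. Socs1, a direct inhibitor of JAK kinases that limits interferon signalling, read 5.38, 5.44, 5.54 and 5.49 in mutants, against 5.36, 5.43, 5.52 and 5.57 in controls. Its values were interleaved, with a difference of -0.0033 ± 0.070 (SE; interval -0.15 to 0.15).

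Socs3 inhibits receptors that use gp130 and the leptin receptor. It read 5.69, 5.47, 5.69 and 5.72 in mutants, against 5.68, 5.67, 5.49 and 5.78 in controls. In each genotype 1 array was low, mutant replicate 2 and control replicate 3, and the remaining 6 arrays lay between 5.67 and 5.78. The difference was -0.013 ± 0.081 (SE; interval -0.19 to 0.16). Its other probe set, which lists a single accession, ranged from 5.31 to 5.44 in mutants and from 5.33 to 5.59 in controls, with a difference of -0.08 ± 0.07 (SE).

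Socs4 to Socs7 have longer N-terminal regions, and several of them are linked to receptor tyrosine kinases and insulin signalling more than to cytokines. Socs4, which can promote turnover of the EGF receptor, ranged from 5.74 to 6.0 in mutants and from 5.66 to 6.19 in controls, where replicate 2 was highest. Socs5, which also acts on the EGF receptor, read 7.65, 7.63, 7.71 and 7.72 in mutants, against 7.72, 7.75, 7.78 and 7.73 in controls. Only the highest mutant and the lowest control array of Socs5 overlapped, and the difference was small, -0.07 ± 0.06 (SE; interval -0.19 to 0.06). Socs7, an adaptor that also acts on insulin signalling, ranged from 7.36 to 7.71 in mutants and from 7.33 to 7.71 in controls, and replicate 4 was lowest in each genotype. The differences were -0.0079 ± 0.11 for Socs4 and 0.0022 ± 0.097 for Socs7 (SE).

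Socs6, which binds insulin receptor substrates and the receptor kinase KIT, was measured by 3 probe sets. The kept one ranged from 6.46 to 6.53 in mutants and from 6.44 to 6.61 in controls, a difference of -0.02 ± 0.06 (SE). A probe set listing the same accessions ranged from 5.79 to 6.09 in mutants and from 5.86 to 6.17 in controls, with a difference of -0.09 ± 0.09 (SE). Because both list the same transcript, the listing does not say which of them reads Socs6 alone and not a near-identical copy. The last probe set, which lists a single accession, lay between 2.24 and 2.68 over all 8 arrays. Its identifier lies beside that of the probe set before it, while the identifier of the kept one lies far from both. Where the probes of each lie was not tested. In none of the 3 did the genotypes separate.

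**Figure D3:**
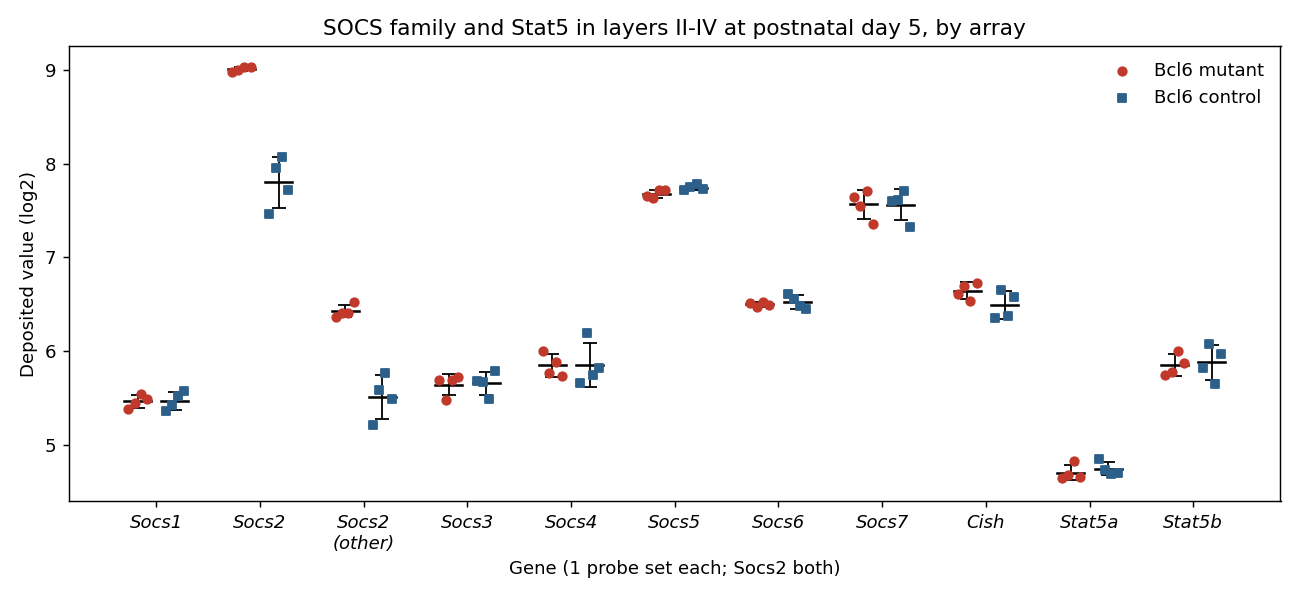
Deposited log2 values (y axis) of the SOCS and Stat5 genes (x axis), 1 point per array, mutants in red circles to the left of controls in blue squares, with bars for the group mean and SD (n = 4 each). The genotypes are separated in both Socs2 probe sets, at 8.98 to 9.03 in mutants against 7.46 to 8.07 in controls for the kept one, and overlap in the other 9 genes.

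Stat5a and Stat5b encode near-identical factors from neighbouring genes on chromosome 11, and probes of one may also pick up the other. Stat5a read 4.64, 4.68, 4.83 and 4.66 in mutants, against 4.85, 4.73, 4.69 and 4.70 in controls. Mutants held the 3 lowest arrays but also the second highest, so the groups overlapped, and the difference was -0.04 ± 0.07 (SE; 95% interval -0.19 to 0.11). Stat5b ranged from 5.74 to 6.0 in mutants and from 5.65 to 6.08 in controls, with a difference of -0.03 ± 0.10 (SE; interval -0.24 to 0.18). These values are transcript levels. STAT5 protein and its phosphorylation, through which the pathway acts, were not measured.

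Over the 9 genes other than Socs2, 0 passed the threshold in limma and 0 had an unadjusted p under 0.05, where 4.91% of all genes did. In all 9 the groups overlapped. Their differences ran from -0.07 for Socs5 to 0.15 for Cish, with a median of -0.013 against -0.0096 over all genes. No 95% interval among them went below -0.24 or above 0.33. A difference in array values of the size seen for Socs2 thus lay outside each interval. Stat5a and Socs1 averaged 4.72 and 5.47 over 8 arrays, below the median gene level of 5.55. Without detection calls it cannot be told whether these values stand above background. The intervals therefore bound array values, not transcript amounts. The SEs of these genes ran from 0.060 to 0.11, and changes within their intervals were not detectable with 4 arrays in a group.

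**Figure D4:**
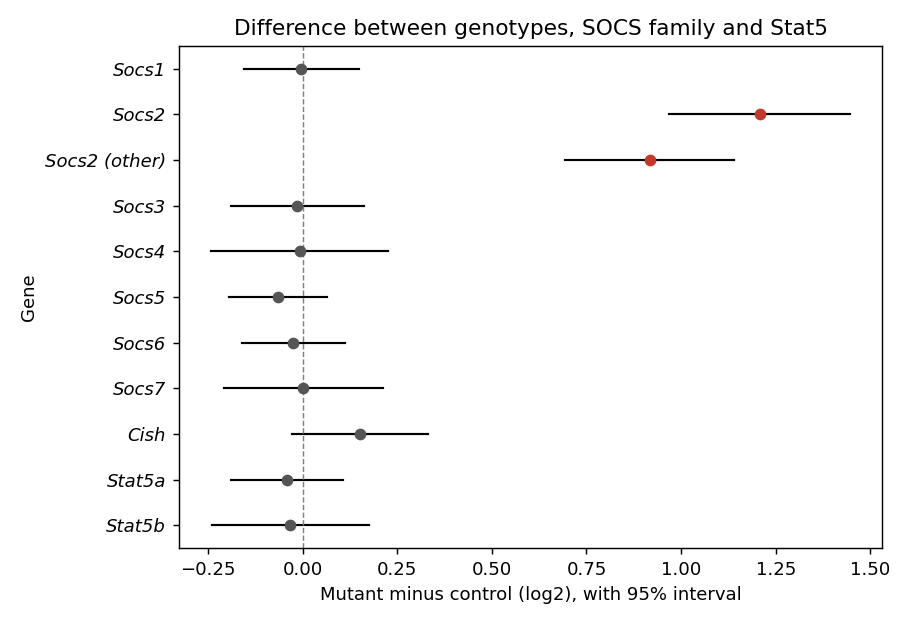
Mutant minus control difference in log2 units (x axis) for the SOCS and Stat5 genes (y axis), with points for the estimate and lines for its 95% interval from limma. The 2 Socs2 probe sets lie at 1.21 and 0.92, and the intervals of the other 9 genes all include 0 and end at or below 0.33.

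The rest of the JAK-STAT pathway was read through 10 gene lists holding 142 genes, of which 130 were tested. None of the 130 passed the threshold in limma, and the smallest adjusted p was 0.655, for Bcl6. Bcl6 is the targeted gene itself and is counted in the figures of this paragraph. The next smallest adjusted p in limma was 0.700, for Rnf7. An unadjusted p under 0.05 was reached by 9 genes or 6.92%, against 4.91% of all genes. The genotypes did not overlap in 4 of the 130, or 3.08%, against 2.75% of all genes. The median difference was -0.021, against -0.0096 over all genes.

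Receptors and ligands upstream of Stat5 gave no call. Of 15 tested receptors for growth hormone, prolactin and blood-cell cytokines 0 passed, with 4 differences positive and 11 negative and a median of -0.06. The mean level of this list was 4.20 to 4.29 in mutant arrays and 4.24 to 4.33 in control arrays. The median gene level was 5.55, and whether such low values stand above background cannot be told. Ghr, the growth hormone receptor whose signal Socs2 limits, read 4.70, 4.49, 4.29 and 4.48 in mutants, against 4.59, 4.65, 4.27 and 4.70 in controls (-0.06 ± 0.10, SE). The smallest p in this list were those of Epor (-0.18 ± 0.09), the erythropoietin receptor, Csf2rb (-0.16 ± 0.09), the shared beta chain of several cytokine receptors, and Il4ra (-0.09 ± 0.07), the interleukin 4 receptor. Of 8 receptors of the gp130 and leptin kind 0 passed, with 6 positive and 2 negative. Lifr, the receptor of leukaemia inhibitory factor, had a difference of 0.25 ± 0.09 (SE; limma adjusted p = 0.907), with 7.79, 7.61, 7.70 and 7.54 in mutants, against 7.39, 7.58, 7.42 and 7.22 in controls. Only mutant replicate 4 fell below the highest control for Lifr.

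Interferon and interleukin receptors numbered 14 and the ligands 24, again with 0 past the threshold in limma and 2 and 3 genes at an unadjusted p under 0.05. Ifnlr1 (-0.15 ± 0.07, SE) and Il20ra (-0.16 ± 0.07), receptors of interferon lambda and of the interleukin 20 group, did not overlap between genotypes, with mutants below. Among ligands the smallest p belonged to Ifng (-0.24 ± 0.10), Il13 (-0.25 ± 0.11) and Il2 (0.16 ± 0.07), with control means of 4.43, 4.83 and 2.66. The table holds no detection calls, so whether such low values stand above background cannot be told.

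Kinases, STAT factors and inhibitors downstream of the receptors showed no call either. The 3 tested JAK kinases had differences between -0.03 for Jak2 and 0.03 for Tyk2, with 0.014 ± 0.066 (SE) for Jak1. All 4 tested STAT factors other than Stat5 had negative differences, namely Stat4 (-0.11 ± 0.08), Stat6 (-0.11 ± 0.07), Stat3 (-0.06 ± 0.07) and Stat2 (-0.05 ± 0.07), with 0 at an unadjusted p under 0.05 in limma. Among 15 phosphatases, PIAS proteins and adaptor inhibitors the smallest p were those of Pias3 (0.18 ± 0.10), an inhibitor of STAT3, and the phosphatases Ptpn2 (0.14 ± 0.08) and Ptpn6 (-0.12 ± 0.08).

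The ubiquitin ligase that SOCS boxes recruit was represented by 9 genes, with 2 differences positive and 7 negative and 0 past the threshold. Rnf7, the RING subunit that works with Cul5, read 8.75, 8.66, 8.50 and 8.68 in mutants, against 8.34, 8.40, 8.37 and 8.46 in controls. All mutants lay above all controls, and the difference was 0.25 ± 0.07 (SE; limma adjusted p = 0.700). The scaffold Cul5 (-0.07 ± 0.06) and the adaptors Elob (-0.05 ± 0.08) and Eloc (-0.06 ± 0.07) gave differences near the size of their SE.

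Targets of the pathway outside the family also gave no call. Of 23 tested STAT5 targets 0 passed, 8 differences were positive and 15 negative, and the median was -0.022. Bcl6, itself a gene that STAT5 represses in lymphoid cells, was described above and was the one target at an unadjusted p under 0.05. Next by p were Gadd45g (0.18 ± 0.09, SE), a growth arrest gene, and the milk protein gene Csn2 (-0.21 ± 0.11). Igf1, the hormone made in response to growth hormone, had a difference of 0.03 ± 0.08. Of 17 receptor kinases and adaptors that SOCS proteins bind, 0 passed, and the smallest p were those of Flt3 (0.15 ± 0.06), Fgfr3 (0.12 ± 0.07) and Met (-0.15 ± 0.09), all receptor tyrosine kinases.

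**Figure D5:**
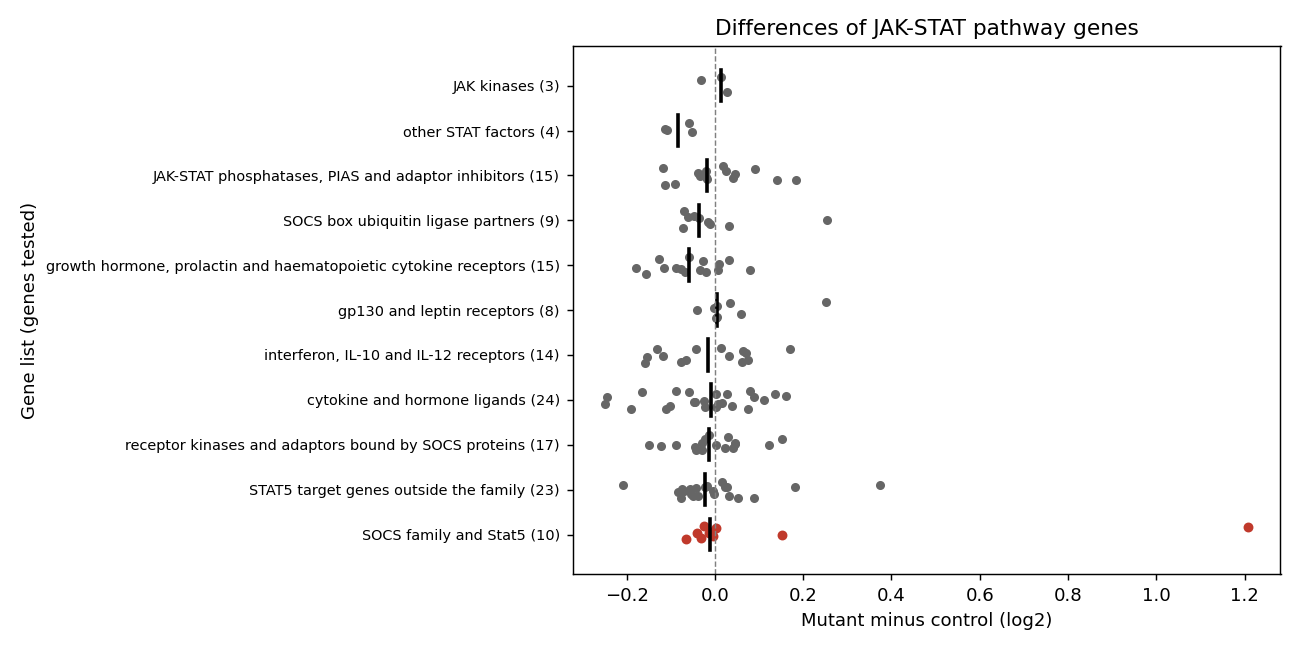
Mutant minus control difference in log2 units (x axis) for each tested gene of 10 JAK-STAT lists and of the SOCS and Stat5 set (y axis, with the number tested). Points are genes and black ticks list medians, with vertical scatter added for legibility. Socs2 stands alone at 1.21, and the 130 other pathway genes lie between -0.25 and 0.37, the upper end being Bcl6, the targeted gene.

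The genes whose pattern over the arrays was most like that of Socs2 were looked up among the 9969 genes at or above the median level. Over the 8 arrays the highest Pearson correlations with the kept probe set were those of Chrm3 (0.97), Spock1 (0.97), Kif13a (0.96), Nefm (0.94) and Fam181b (0.94). These correlations describe arrays of 2 genotypes and mostly reflect the gap between them. Chrm3, Spock1, Kif13a and Nefm were past the threshold in the same comparison, and Fam181b was not (0.17 ± 0.06, SE; limma adjusted p = 0.921). After each genotype's mean was taken out, the highest correlations over the 8 arrays were those of Slc25a27 (0.97), Agpat1, Serpinf1, Rap1a and Dzip1 (each 0.96). None of these 5 passed the threshold, with differences from -0.14 ± 0.07 for Serpinf1 to 0.19 ± 0.08 for Slc25a27 (SE). They were picked from all 9969 for following Socs2 within genotypes, so that likeness is no separate result. Socs2 varied little among mutants (SD 0.025, against 0.27 in controls), so these correlations mostly reflect the 4 controls. Slc25a27, for instance, read 6.63, 6.94, 7.0 and 6.81 in control replicates 1 to 4, the same order as Socs2. Foxo1, a forkhead factor controlled by growth factor signals and called together with Socs2, had another order, with 7.56, 7.42, 7.25 and 7.08 in the same arrays.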

How the data were processed

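The deposited table holds the authors' log2 values of 35556 probe sets in 8 arrays, made with BRB-ArrayTools per the labels. How background, scaling and summarization were handled, and the version, is not given in the sources used. The log2 scale was read from the values, which run from 0.74 to 13.6. No detection call was at hand, and the array number sets the precision.

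Names came from the platform annotation, updated through Entrez identifiers to GRCm38.p6 (21698 of 21789 single-gene probe sets matched). The probe set with the highest mean was kept for each of 19938 genes; listed genes without one were not analysed here. The genotype difference was fitted in R 4.3.3 with limma 3.58.1 (lmFit, then eBayes, two-sided, no filter on dim genes), adjusted over all genes by Benjamini-Hochberg, and the fit was tested on simulated data. A difference is the mutant minus the control mean (log2), with moderated SE and 95% interval.

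The members and gene lists were chosen with earlier results of these data known. Named genes were the members, Bcl6, Neurod6, Islr2, Kif13a, Foxo1, up to 3 genes of smallest p per pathway list and the 5 most like Socs2 by each of 2 correlations. Ghr, Igf1, Elob, Eloc, Stat2, Xist, the Y-linked genes, the cell markers and the neighbours of Socs2 and Stat5a were named after their values were seen. Replicate numbers are not said to pair pups. The 19 alternatives covered scaling, a filter, the prior, array weights, the replicate number, the choice of probe sets, sex-linked expression and leaving out each array.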

Additional observations from a re-analysis of the deposited data

Results flagged for a closer look

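In 134 groups of 4 arrays examined over the member probe sets and the other named genes, 10 held an array far from the other 3 by Dixon's criterion, where chance flags about 1 group in 20. Among members this was Socs3 alone, at 5.47 in mutant replicate 2, with the nearest other mutant at 5.69. Stat3 was lowest in mutant replicate 2 (6.67, nearest 6.79) and highest in control replicate 3 (6.97, nearest 6.78). Atp6v0a1, a proton pump subunit encoded close to Stat3, stood apart in the same arrays, at 10.19 in mutant replicate 2 and 10.40 in control replicate 3. In control replicate 2, Ptpn2 was highest at 7.86 and Neurod6 at 9.41. Il27ra was highest in control replicate 1 at 4.58, Hcrt in mutant replicate 3 at 4.42, and Slc25a27 was lowest in mutant replicate 1 at 6.96. No cause of these was tested.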

How the results depend on the processing

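Socs2 kept its sign in all 19 alternatives, with differences from 1.06 (mean of its probe sets) to 1.30 (without control replicate 3), and it passed the threshold in 18. Without the 2 arrays of high Xist its difference was 1.22 and its adjusted p 0.0539, so that 0 members passed, and 2 genes passed over all. That fit holds fewer arrays. Leaving out 1 array at a time gave 1.09 to 1.30 for Socs2 and 3 to 13 genes past the threshold, against 13 with all 8 arrays. The lowest count came without mutant replicate 2 or mutant replicate 4, and without control replicates 1, 3 and 4 or mutant replicates 1 and 3 it was 4, 4, 5, 5 and 4. The count over all genes was 4 with the Y-linked covariate and 5 with the replicate block. The cause was not tested. Replicate numbers were not treated as pairs, since they are not said to pair pups. Deviations of same-numbered arrays correlated at -0.01 to 0.16, highest for replicate 4, and those of differently numbered arrays at -0.10 to 0.07. With the replicate block Socs2 differed by 1.21 ± 0.10 (SE; limma adjusted p = 0.0031).

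The 9 other members and the 130 pathway genes gave 0 calls in each of the 19 alternatives. The signs of Socs1, Socs3, Socs4, Socs6, Socs7, Stat5a and Stat5b turned in 1 to 9 of them and those of Cish and Socs5 in 0. The median difference of all genes was -0.0096 as deposited, -0.0061 after quantile normalization and 0.0041 after median centring. Under median centring the medians of the ligand list and of the receptor kinase list turned from negative to positive (0.0042 and 0.0015).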

Other observations

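The genes next to Socs2 on chromosome 10 gave no call. The 3 nearest tested genes on each side, in the gene order of GRCm38.p6, were Cep83, Plxnc1 and Cradd and, on the other side, Mrpl42, Ube2n and Nudt4. Their differences lay between -0.12 and 0.02, the groups overlapped in all 6, and limma's adjusted p was 1.00 for each. Ube2n, a ubiquitin-conjugating enzyme, averaged 9.13 in mutants and 9.18 in controls, and Plxnc1, a semaphorin receptor, 6.58 in mutants and 6.66 in controls. The identifier of the Ube2n probe set lies apart from those of Mrpl42 and Nudt4, the genes on either side of it. Whether that probe set reads the gene at this place was not tested. Around Stat5a on chromosome 11 the tested neighbours other than Stat5b were Hcrt, Ghdc, Stat3, Cavin1 and Atp6v0a1, with differences between -0.07 and 0.10 and 0 past the threshold. These neighbours were chosen after other values had been seen.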
